A study of Mus musculus with 25 samples.

Results

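The top of the follicle-associated epithelium (FAET) was compared with the top of the isolated lymphoid follicle directly beneath it (ILFT), in 10 of the 25 laser capture microdissection (LCM) RNA-seq libraries of the series. The 10 libraries were chosen by their labelled segment alone, and consist of 5 FAET and 5 ILFT libraries, 1 of each per repeat. All genes of the count table were considered, and 9956 of 24089 had enough UMIs to be tested. The remaining 15 libraries were 5 each of the FAE bottom (FAEB), the ILF bottom (ILFB) and the bottom of a neighbouring villus (VB). The study dissected these 5 segments to map expression in follicles and the epithelium over them, and FAET against ILFT asks how the dome surface and the tissue under it differ.

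Both groups came from the jejunum of the same 2 male C57BL/6 mice, 3 months old by the labels, kept on regular chow with no treatment and no genetic change. Mouse 1 gave repeats 1 and 2 and mouse 2 gave repeats 3 to 5. Both segments of a repeat were therefore cut from the same animal. Each library was a pool over at least 3 follicles, so that no library represents 1 follicle, and 2 animals limit what a p-value can cover: it measures the spread between these pools. The follicles were recognised by histology, and no gene was used to select them. Transcripts were counted by unique molecular identifiers (UMIs), tags added to each captured mRNA before amplification. A level is given below as UMIs of a gene per 10,000 UMIs of its library. In bulk tissue, fewer cells of a type and less RNA per cell cannot be told apart.

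Isolated lymphoid follicles are small clusters of B cells in the intestinal wall, held by stromal cells and mixed with T cells, innate lymphoid cells, dendritic cells and macrophages. The epithelium that covers a follicle is made mostly of absorptive enterocytes, with interspersed M cells that carry luminal antigens to the immune cells beneath. Enterocytes carry a brush border with digestive enzymes and transporters, and pack dietary fat into chylomicrons with apolipoproteins. Epcam, an adhesion molecule of epithelia, and Krt8, a keratin of simple epithelia, mark the upper layer. Ptprc (CD45), a phosphatase of all nucleated blood cells, and Coro1a, an actin regulator of leukocytes, mark the lower one.

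These 4 genes did not follow the labels in every library. Epcam had 5, 14, 3, 131 and 41 UMIs in FAET repeats 1 to 5, against 93, 0, 19, 39 and 1 in ILFT repeats 1 to 5. Krt8 had 18, 1, 18, 79 and 14 UMIs in FAET, against 93, 20, 96, 60 and 1 in ILFT. Both were high in ILFT repeats 1 and 4. ILFT repeats 2 and 3 were high in Krt8 alone, at 6.67 and 9.84 per 10,000, with Epcam levels of 0 and 1.95. Relative to ILFT, Krt8 was lower in FAET in repeats 1, 2 and 3. Ptprc had 18, 0, 0, 9 and 1 UMIs in FAET, against 0, 7, 14, 4 and 66 in ILFT. Coro1a had 33, 0, 0, 2 and 10 UMIs in FAET, against 0, 23, 30, 2 and 46 in ILFT. The library labelled FAET repeat 1 held more Ptprc and Coro1a than Epcam, and the library labelled ILFT repeat 1 held none of either immune gene. ILFT repeat 3 held both kinds, and ILFT repeat 4 held mostly the epithelial kind. It is possible that the segment labels of repeat 1 were exchanged, which was not tested and would turn the sign of every difference within repeat 1. Results are therefore given with all 10 libraries and without these 4, which leaves 4 FAET libraries (repeats 2 to 5) and 2 ILFT libraries (repeat 2 of mouse 1 and repeat 5 of mouse 2). Of these, ILFT repeat 2 was kept although its Krt8 went against its label.

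The wider marker lists also overlapped between the segments. The summed level of 18 genes found throughout the epithelium was 17.1, 33.9, 42.5, 82.9 and 66.7 per 10,000 in FAET repeats 1 to 5, against 84.5, 13.7, 87.5, 60.4 and 8.83 in ILFT. The summed level of 17 genes found in most leukocytes was 72.5, 6.50, 20.6, 22.2 and 20.3 in FAET, against 8.60, 86.7, 48.1, 9.73 and 54.9 in ILFT. Of the 18 epithelial genes, 2 to 12 were at 0 in a FAET library and 0 to 13 in an ILFT library. Of the 17 immune genes, 3 to 15 were at 0 in a FAET library and 2 to 10 in an ILFT library. A lymphoid follicle is defined by its B cells, and the B cell receptor genes Cd79a and Cd79b were near 0 in both segments, with 5 and 2 UMIs in all FAET libraries together, against 8 and 5 in all ILFT libraries.

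**Figure D1:**
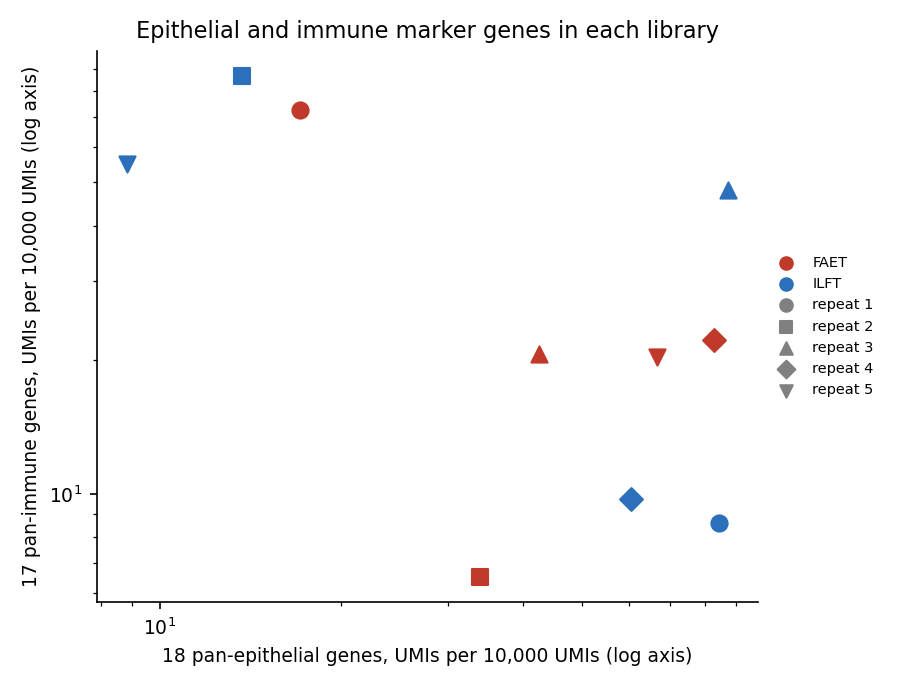
Summed level of 18 pan-epithelial genes (x axis) and 17 pan-immune genes (y axis), both in UMIs per 10,000 UMIs on log axes, with 1 point per library, colour for the segment and shape for the repeat. FAET repeat 1 lies at the upper left beside ILFT repeats 2 and 5, and ILFT repeats 1 and 4 lie at the lower right with high epithelial and low immune sums.

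FAET was the shallowest segment, with 78224, 21529, 23314, 70784 and 48759 UMIs in repeats 1 to 5, against 115106, 29987, 97589, 68864 and 83798 in ILFT. The series ranged from 21529 to 213736. The number of genes with at least 1 UMI was 7610, 1507, 1956, 5516 and 3422 in FAET, against 7364, 3571, 6031, 5742 and 6761 in ILFT. A gene with 0 UMIs in a library may still have a level of up to 0.384 to 1.39 per 10,000 in FAET and up to 0.261 to 1.00 in ILFT, by the limit of 3 UMIs. The 3 Epcam UMIs of FAET repeat 3 give a level of 1.29 per 10,000, with an exact (Clopper-Pearson) 95% interval of 0.265 to 3.76. Such intervals and limits cover counting error only.

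With all 10 libraries, no gene passed an adjusted p of 0.05. Of 9956 genes tested with edgeR's quasi-likelihood test (Benjamini-Hochberg adjusted), 0 were called higher in FAET (0%) and 0 higher in ILFT (0%). At an unadjusted p under 0.05, edgeR counted 436 genes higher in FAET (4.38%) and 941 higher in ILFT (9.45%). DESeq2 also called 0 genes, with 104 higher in FAET and 339 higher in ILFT at an unadjusted p under 0.05. With limma-voom, which called 0 genes as well, the skew of all genes turned round, with 458 higher in FAET, 276 higher in ILFT and 58.8% of genes above 0 (median log2 fold change 0.18). A fit that blocked on the repeat called 0 genes, 224 (2.25%) were higher in FAET and 553 (5.55%) higher in ILFT at an unadjusted p under 0.05, and 62.7% of genes had a log2 fold change below 0. A log2 fold change (log2FC, FAET minus ILFT) above 0 was found for 39.5% of genes, and the median over all genes was -0.40. In simulated counts with the spread of these libraries, the test called 2% of genes changed 4-fold, 14% of those changed 16-fold, 60% of those changed 64-fold and 90% of those changed 256-fold. Each fold was given to 50 genes, drawn from those with a mean of at least 3 UMIs per library, so genes with fewer UMIs are not covered.

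The smallest p belonged to Ccdc166, whose 152 UMIs all came from FAET repeat 5 (adjusted p = 0.0705, edgeR). Ccdc166 was 1 of the genes that passed when a single library was left out. Without ILFT repeat 1, 4 genes were called higher in FAET, namely Tsc22d3, Ccdc166, Sec14l4 and Rassf6, and the same 4 without all of repeat 1. Without repeat 2, without FAET repeat 1 or without FAET repeat 3, Ccdc166 was the 1 gene called. The UMIs of Sec14l4, which encodes a lipid-binding protein, were 271, 0, 0, 271 and 0 in FAET, against 565, 0, 1, 0 and 0 in ILFT. Both Ccdc166 and Sec14l4 were thus present in 1 or 2 FAET libraries and at 0 in the others.

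Without the 4 opposing libraries, 0 genes passed in either direction (0% of 9290), with 506 genes (5.45%) higher in FAET and 914 (9.84%) higher in ILFT at an unadjusted p under 0.05, and the median log2FC was -0.08, with 46.5% of genes above 0. Non-overlap was then 86 genes with all 4 FAET above both ILFT libraries (0.864% of 9956) and 719 below (7.22%), and 66 and 474 when every library was thinned to the 21529 UMIs of the smallest. The series held 2 further libraries whose markers opposed their labels, 1 VB and 1 ILFB library of repeat 5. A possible exchange of the labels of these was not tested. They enter the fit through the shared estimate of spread, the normalization, the mouse term and the choice of genes tested, of which 8738 remained, against 9290 with them. Without all 6, edgeR called 5 genes higher in FAET (0.0572% of 8738) and 4 higher in ILFT (0.0458%). At an unadjusted p under 0.05 the counts were 580 (6.64%) and 1021 (11.7%), and 46.6% of genes were above 0. The 5 were Apoa1, Apoa4, Apob, Guca2b and Reg3g. The 4 were Apoe, Clu, Rps15a and Mycbp2. These 9 genes were singled out after their values were seen, and the libraries were left out for their epithelial and immune genes, so the direction of genes of those kinds is in part fixed by that choice.

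Of these 9 genes, the 3 apolipoproteins of the first set build chylomicrons and high-density lipoproteins in enterocytes. Guca2b encodes uroguanylin, a peptide that regulates salt and water secretion into the lumen, and Reg3g encodes a lectin that kills Gram-positive bacteria. The promoters of the 5 genes called higher in FAET without the 6 libraries are given from RefSeq (GRCm38.p6, the build of the counts). They run from 250 bases before to 50 after the start site, 5′ to 3′ on the gene's strand. With all libraries none of these genes was called, and the log2FC of Reg3g was below 0, at -0.52. All 5 genes matched the RefSeq promoter table. Apoa1 lies at chr9:46228380-46228679 on the + strand and Apoa4 at chr9:46240594-46240893 on the + strand, their start sites 12214 bp apart. Apob lies at chr12:7977427-7977726 on the + strand, Guca2b at chr4:119658896-119659195 on the - strand and Reg3g at chr6:78468825-78469124 on the - strand. Capitals mark matches, on either strand, to CAAAGNNCA, a form of the HNF4 motif, and to TTTATNG, a form of the CDX motif. Both factors are known regulators of intestinal epithelial genes.
Apoa1: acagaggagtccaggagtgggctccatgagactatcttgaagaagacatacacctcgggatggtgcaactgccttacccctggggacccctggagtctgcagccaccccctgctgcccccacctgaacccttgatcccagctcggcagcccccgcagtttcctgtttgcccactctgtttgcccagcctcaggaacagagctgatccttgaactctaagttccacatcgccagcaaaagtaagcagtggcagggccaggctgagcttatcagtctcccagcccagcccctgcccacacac
Apoa4: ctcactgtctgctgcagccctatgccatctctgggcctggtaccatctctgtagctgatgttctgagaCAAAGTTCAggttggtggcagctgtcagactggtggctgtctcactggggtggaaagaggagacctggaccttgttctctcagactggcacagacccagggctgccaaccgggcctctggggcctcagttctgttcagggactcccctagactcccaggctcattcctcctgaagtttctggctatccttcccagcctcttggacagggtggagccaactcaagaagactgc
Apob: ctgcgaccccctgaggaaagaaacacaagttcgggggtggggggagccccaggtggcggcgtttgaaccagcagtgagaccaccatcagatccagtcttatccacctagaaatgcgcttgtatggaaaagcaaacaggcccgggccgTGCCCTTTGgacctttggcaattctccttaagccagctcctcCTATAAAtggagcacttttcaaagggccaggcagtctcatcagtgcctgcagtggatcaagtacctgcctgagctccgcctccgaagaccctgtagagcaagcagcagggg
Guca2b: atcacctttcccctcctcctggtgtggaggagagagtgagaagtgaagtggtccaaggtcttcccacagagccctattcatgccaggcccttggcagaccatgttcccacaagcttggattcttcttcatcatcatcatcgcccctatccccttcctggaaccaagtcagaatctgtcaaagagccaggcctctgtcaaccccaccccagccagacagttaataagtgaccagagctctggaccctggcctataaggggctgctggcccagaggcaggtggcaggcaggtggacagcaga
Reg3g: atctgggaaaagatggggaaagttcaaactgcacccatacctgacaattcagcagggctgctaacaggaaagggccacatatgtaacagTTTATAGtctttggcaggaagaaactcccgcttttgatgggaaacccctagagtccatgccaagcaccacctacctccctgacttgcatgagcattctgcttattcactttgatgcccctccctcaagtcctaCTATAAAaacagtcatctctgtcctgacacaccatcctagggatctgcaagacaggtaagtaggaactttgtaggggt
The HNF4 letters stood at -182 in Apoa4 and at -103 in Apob, counted from the start site, and 6.36% of all 32851 promoters hold them. The CDX letters stood at -61 in Apob and at -161 and -28 in Reg3g, and 10.9% of all promoters hold them. On the other strand they read CTATAAA, which overlaps the TATA box motif TATAAA, in the Apob match and in the second Reg3g match. No match was found in the windows of Apoa1 and Guca2b. A match is a description of letters, not of binding.

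Apoa1, the main protein of high-density lipoprotein, had 21, 64, 321, 698 and 397 UMIs in FAET, against 766, 32, 799, 147 and 3 in ILFT. Its level was 2.68, 29.7, 138, 98.6 and 81.4 per 10,000 in FAET, against 66.5, 10.7, 81.9, 21.3 and 0.358 in ILFT, higher in FAET in 4 of 5 repeats. Repeat 1 ran the other way, and the groups overlapped. The log2FC was 0.79 ± 0.78 (SE, adjusted p = 0.727, edgeR) with all libraries, 4.95 ± 1.26 (adjusted p = 0.112) without the 4 and 4.93 ± 1.15 (adjusted p = 0.0250) without the 6.

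Apoa4, which is secreted on chylomicrons and rises toward the villus tip, had a level of 1.15, 26.0, 106, 128 and 52.9 in FAET, against 38.2, 6.67, 39.8, 10.7 and 0.358 in ILFT. It was higher in FAET in the same 4 of 5 repeats. Its log2FC was 1.73 ± 0.85 (adjusted p = 0.346, edgeR) with all libraries and 5.79 ± 1.39 (adjusted p = 0.101) without the 4, and 5.63 ± 1.26 (adjusted p = 0.0216) without the 6. Apoc3, an apolipoprotein of the same chromosomal cluster that slows lipoprotein breakdown, had 0.511, 7.43, 8.15, 29.7 and 20.3 in FAET, against 10.4, 2.33, 2.56, 4.5 and 0.119 in ILFT. Apob, the backbone of the chylomicron, had 1, 20, 3, 117 and 3 UMIs in FAET, against 76, 0, 4, 10 and 0 in ILFT. Without the 4 libraries Apob was at 0 in both ILFT libraries, and its pooled level was at least 33.0-fold higher in FAET, against the limit of 3 UMIs over the group. The adjusted p of Apob was 0.415 with all libraries, 0.128 without the 4 and 0.0341 without the 6 (edgeR).

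Reg3g had 5, 31, 49, 86 and 119 UMIs in FAET, against 495, 1, 250, 90 and 0 in ILFT. Its level was 0.639, 14.4, 21, 12.1 and 24.4 per 10,000 in FAET, against 43.0, 0.333, 25.6, 13.1 and 0 in ILFT, higher in FAET in 2 of 5 repeats. FAET repeats 2 to 5 were alike, and the ILFT libraries split into 3 high and 2 low ones. The log2FC was -0.52 ± 0.93 (adjusted p = 0.901, edgeR) with all libraries and 7.35 ± 1.82 (adjusted p = 0.101) without the 4, and 7.32 ± 1.66 (adjusted p = 0.0216) without the 6. Guca2b had 6, 43, 65, 316 and 205 UMIs in FAET, against 445, 1, 440, 137 and 5 in ILFT, and its level was higher in FAET in 3 of 5 repeats. Its log2FC was 0.09 ± 0.88 (adjusted p = 1.00, edgeR) with all libraries and 6.25 ± 1.54 (adjusted p = 0.101) without the 4, and 6.27 ± 1.40 (adjusted p = 0.0216) without the 6.

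On the follicle side, Apoe, an apolipoprotein that macrophages make, had 45, 0, 0, 0 and 1 UMIs in FAET, against 0, 53, 57, 0 and 77 in ILFT. It was at 0 in ILFT repeats 1 and 4, the libraries with the lowest immune sums of that segment. Clu, clusterin, which follicular dendritic cells and some epithelial cells make, had 312, 1, 1, 16 and 11 UMIs in FAET, against 10, 65, 121, 4 and 372 in ILFT. The log2FC of Apoe was -2.77 ± 1.18 (adjusted p = 0.316, edgeR) with all libraries and -6.86 ± 1.66 (adjusted p = 0.101) without the 4, and -6.79 ± 1.52 (adjusted p = 0.0216) without the 6. That of Clu was -0.48 ± 1.04 (adjusted p = 0.935, edgeR) and -4.53 ± 1.21 (adjusted p = 0.176) without the 4, and -4.48 ± 1.10 (adjusted p = 0.0454) without the 6.

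Rps15a, a protein of the small ribosomal subunit, had 86, 0, 0, 0 and 1 UMIs in FAET, against 15, 13, 102, 25 and 58 in ILFT. It was present in all 5 ILFT libraries, those rich in epithelial genes included, and its level was lower in FAET in 4 of 5 repeats. Its log2FC was -0.75 ± 1.12 (adjusted p = 0.855, edgeR) with all libraries, -6.44 ± 1.59 (adjusted p = 0.101) without the 4 and -6.39 ± 1.47 (adjusted p = 0.0250) without the 6. Mycbp2, a ubiquitin ligase, had 23, 0, 0, 0 and 0 UMIs in FAET, against 7, 25, 14, 1 and 39 in ILFT. Without the 4 libraries it was at 0 in FAET, and its pooled level was at least 30.8-fold lower there, against the limit of 3 UMIs over the group. The adjusted p of Mycbp2 was 0.327 with all libraries, 0.110 without the 4 and 0.0363 without the 6 (edgeR). Reads of ribosomal protein genes can be split with their processed copies, so single values of such genes are uncertain.

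**Figure D2:**
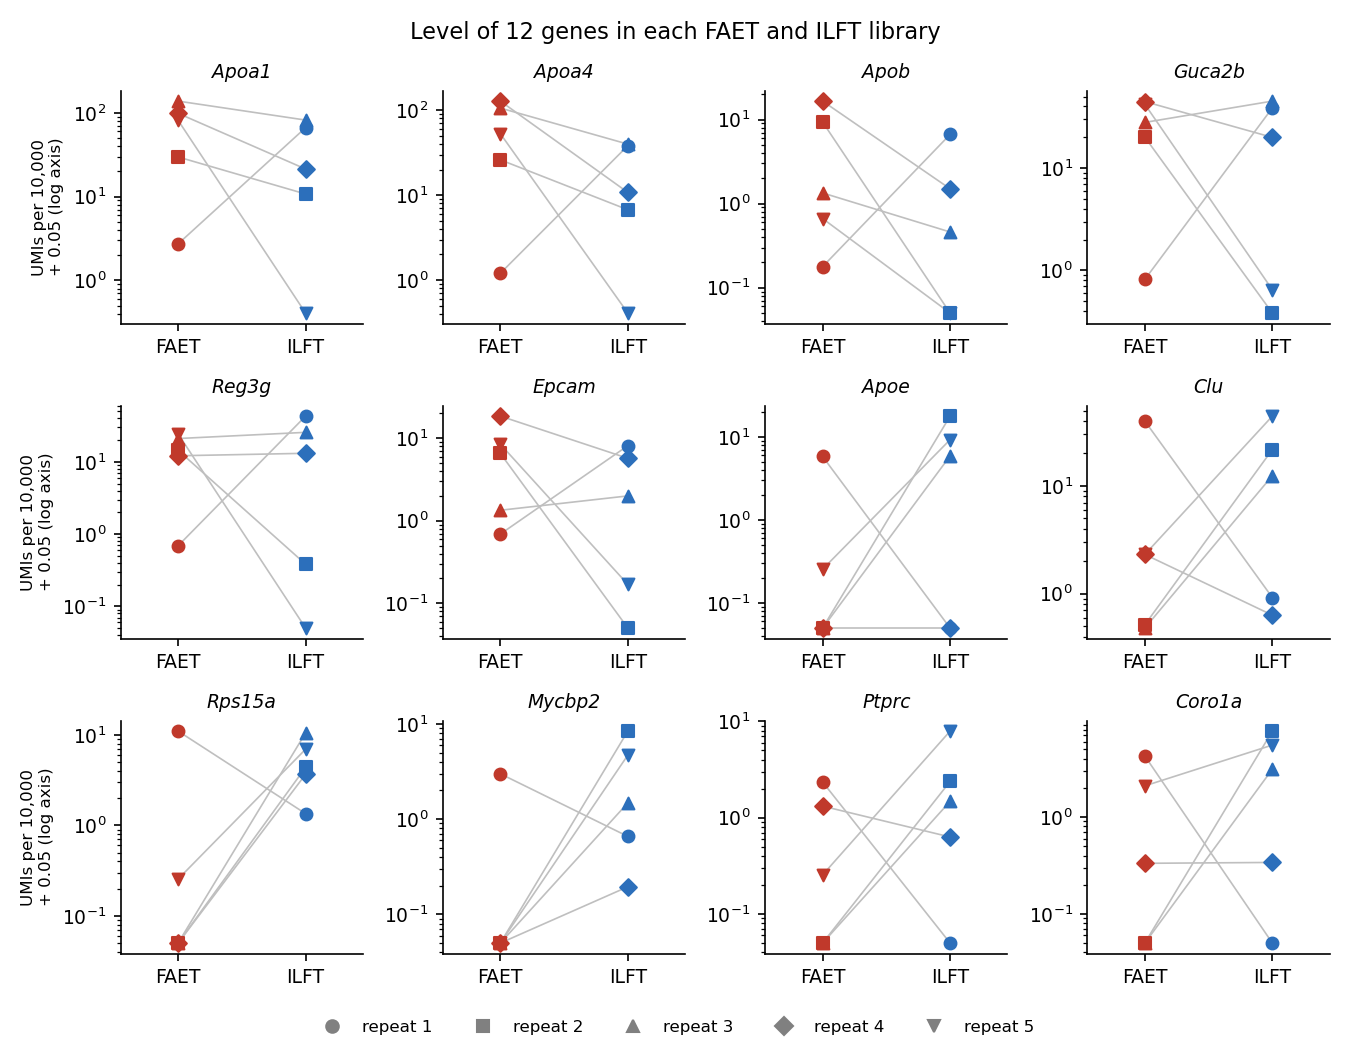
Level of 12 genes in each library, in UMIs per 10,000 UMIs with 0.05 added on a log axis. FAET is on the left and ILFT on the right, shapes give the repeat, and a grey line joins both segments of a repeat. In most panels the line of repeat 1 slopes against those of repeats 2 and 5.

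Absorptive genes did not separate the segments with all libraries, and had positive medians without the 4. Of 17 tested genes for brush border digestion, 12 had a log2FC above 0 with all libraries (median 0.16), beside 39.5% of all genes, and 17 of 17 without the 4, beside 46.5%. Their median was then 4.32, or 2.64 with genes at 0 in a whole group set to their limit, against -0.08 over all genes. The list held epithelial genes like those by which the 4 libraries were recognised, so the second count is a description. Its summed level was 9.46, 66.0, 69.9, 73.0 and 94.1 per 10,000 in FAET, against 90.3, 11, 83.5, 39.5 and 1.91 in ILFT. FAET repeats 2 to 5 lay in a narrow band, 75.8 ± 12.6 (SD, n = 4), and FAET repeat 1 lay far under it.

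Sis, sucrase-isomaltase, had 15, 18, 42, 51 and 57 UMIs in FAET, against 104, 2, 76, 20 and 0 in ILFT, with a log2FC of 0.87 ± 1.01 (adjusted p = 0.778, edgeR). Anpep, an aminopeptidase of the brush border, had 17, 81, 48, 182 and 193 UMIs in FAET, against 451, 15, 429, 140 and 6 in ILFT. As a level Anpep was higher in FAET in 3 of 5 repeats. Lct, lactase, had 10, 0, 1, 17 and 26 UMIs in FAET, against 51, 2, 30, 9 and 0 in ILFT. Alpi, alkaline phosphatase of mature enterocytes, was at 0 in FAET repeats 1 to 3 and at 16 and 7 UMIs in repeats 4 and 5, against 27, 0, 22, 9 and 0 UMIs in ILFT. In ILFT, each of these 4 enzymes had fewer UMIs in repeats 2 and 5 than in repeats 1, 3 and 4. The 14 tested genes of brush border structure had a median of -0.05 with all libraries and 4.14 without the 4 (3.05 with genes at 0 at their limit). Without the 4, 14 of 14 were above 0, beside 46.5% of all genes, again a description. Vil1, villin, which bundles actin in microvilli, had 9, 0, 1, 86 and 19 UMIs in FAET, against 60, 3, 100, 27 and 3 in ILFT.

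Genes of lipid absorption and chylomicrons took a mean of 176 ± 126 UMIs per 10,000 in FAET and 105 ± 93.9 in ILFT (SD, n = 5 each), a difference within the spread. The sum was 18.3, 82.7, 288, 309 and 183 in FAET, against 188, 40.7, 222, 62.3 and 11.6 in ILFT, higher in FAET in repeats 2 to 5. Of 23 tested genes, 6 had a log2FC above 0 (median -0.55), beside 39.5% of all genes. Without the 4 libraries 20 of 21 were above 0 (median 4.45, 3.61 at their limit), beside 46.5%. For epithelial genes like these the second count is a description. With all libraries, the apolipoproteins and the intracellular fat carriers did not run alike. Fabp1, a fatty acid-binding protein, had 6, 0, 16, 32 and 9 UMIs in FAET, against 113, 1, 335, 30 and 0 in ILFT. Fabp2, its relative in the same cells, had 18, 0, 6, 108 and 7 UMIs in FAET, against 175, 3, 225, 42 and 0 in ILFT. Both were higher in FAET in 2 of 5 repeats, where Apoa1, Apoa4, Apob and Apoc3 were each higher in 4 of 5. That contrast between the genes was not tested, and it did not hold without the 4 libraries. The log2FC was then 5.42 ± 1.83 for Fabp1 and 5.04 ± 1.59 for Fabp2 (SE). It was 4.95 for Apoa1, 5.79 for Apoa4, 8.96 for Apob and 5.34 for Apoc3.

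The 22 tested nutrient transporters had a median log2FC of -0.17 with all libraries and 4.15 without the 4 (1.97 at their limit). Slc5a1, the sodium-coupled glucose transporter, had 0, 4, 24, 65 and 55 UMIs in FAET, against 89, 4, 69, 12 and 5 in ILFT. Npc1l1, the cholesterol transporter, had 0, 0, 0, 9 and 18 UMIs in FAET, against 29, 0, 9, 17 and 7 in ILFT. It was present in 2 FAET and 4 ILFT libraries. The 15 tested villus tip genes, those that enterocytes switch on as they reach the tip, had the highest median among the lists of epithelial genes, 1.01, against -0.40 over all genes. Their summed level was 7.54, 92.4, 273, 270.1 and 148 in FAET, against 133, 20, 130.1, 41.7 and 3.46 in ILFT, higher in FAET in 4 of 5 repeats. Apoa1, Apoa4 and Apob belong to this list as well. Cdh1, E-cadherin of the junctions between epithelial cells, had 4, 26, 20, 22 and 23 UMIs in FAET, against 40, 0, 1, 12 and 1 in ILFT. Cdkn1a, a cell cycle inhibitor, had 0, 12, 18, 22 and 9 UMIs in FAET, against 21, 2, 1, 20 and 0 in ILFT.

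The antimicrobial genes of enterocytes went the other way with all libraries. All 13 tested genes had a log2FC below 0 (median -1.32), a side on which 60.5% of all genes lay, and none passed the test. The sum was 10.7, 28.8, 54.9, 48.7 and 55.0 per 10,000 in FAET, against 128, 3.0, 117, 50.5 and 3.82 in ILFT. ILFT repeats 1 and 3 were above every FAET library, and ILFT repeats 2 and 5 were below every FAET library. Without the 4, 10 of 10 tested genes were above 0 (median 4.21, 3.39 at their limit), beside 46.5% of all genes, again a description. Reg3b, a lectin that kills Gram-negative bacteria, had 7, 0, 27, 71 and 0 UMIs in FAET, against 328, 1, 297, 7 and 0 in ILFT. Pigr, the receptor that carries IgA across the epithelium, had 7.03, 13.9, 20.6, 10.7 and 24.0 per 10,000 in FAET, against 31.5, 2.00, 34.0, 20.6 and 3.46 in ILFT. Its log2FC was -0.46 ± 0.83 (adjusted p = 0.903, edgeR).

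Secretory lineages gave mixed values. The goblet cell sum was 2.81, 37.6, 37.3, 45.8 and 13.3 per 10,000 in FAET, against 35.4, 3.33, 76.2, 19.3 and 1.19 in ILFT. Muc2, the gel-forming mucin, had 0, 0, 17, 32 and 0 UMIs in FAET, against 31, 0, 32, 17 and 0 in ILFT. Paneth cells lie at crypt bases, away from the dome. The Paneth cell sum was 6.90, 0.464, 0, 2.26 and 8.0 in FAET, against 2.17, 18, 1.54, 71.9 and 1.79 in ILFT. It was highest in ILFT repeat 4, and Defa24, a defensin, had 4, 0, 0, 3 and 0 UMIs in FAET, against 14, 20, 0, 123 and 0 in ILFT (adjusted p = 0.309, edgeR). Defensin genes are near copies of each other, so the split between them is uncertain. Of the 12 tested Paneth genes, 1 had a log2FC above 0 (median -2.94), and 5 were lower in FAET at an unadjusted p under 0.05, beside 39.5% and 9.45% of all genes. Without the 4 libraries, ILFT repeat 4 among them, 7 of 12 were above 0 (median 0.01, -0.27 at their limit) and 0 were lower at an unadjusted p under 0.05.

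M cell genes, a marker list given with the study, had a median log2FC of 0.58 over 32 tested genes, with 24 above 0, where 39.5% of all genes were. With genes at 0 in a whole group at their limit the median was also 0.58, and without the 4 libraries it was 2.78 and 1.32. Their summed level was 145, 15.3, 40.7, 86.3 and 83.5 per 10,000 in FAET, against 41.8, 112, 91.4, 35.7 and 124 in ILFT. The sum was higher in FAET in 2 of 5 repeats, so sum and median pointed to different sides. Anxa5, an annexin used as an M cell marker, had 14, 0, 0, 13 and 16 UMIs in FAET, against 18, 0, 4, 2 and 11 in ILFT, with a log2FC of 0.69 ± 1.17 (adjusted p = 0.891, edgeR). Tnfaip2, which takes part in membrane protrusions of M cells, had 6, 0, 0, 5 and 0 UMIs in FAET, against 0, 1, 0, 0 and 0 in ILFT. Ccl20, the chemokine of the follicle-associated epithelium that draws CCR6-bearing cells, had 53 UMIs in FAET repeat 4 and 0 in the other 4 FAET libraries, against 36, 0, 0, 5 and 0 in ILFT.

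**Figure D3:**
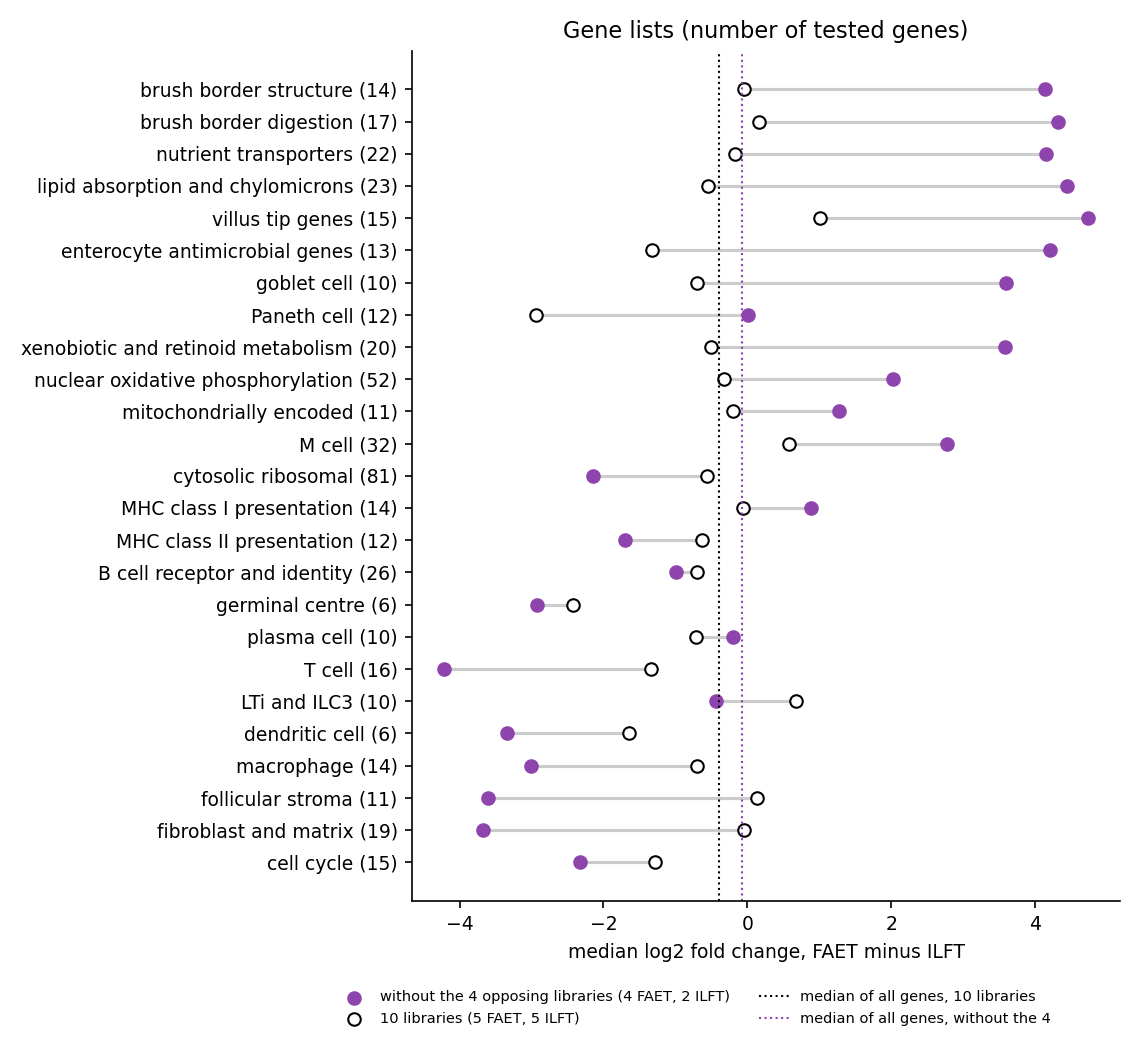
Median log2 fold change (FAET minus ILFT) of 25 gene lists, with the number of tested genes in parentheses. Open circles use all 10 libraries and filled circles leave out the 4 opposing libraries, and dotted lines give the median of all genes. Without the 4 libraries, the epithelial lists at the top lie further right, and the immune and stromal lists further left, apart from those of plasma cells and MHC class I presentation.

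Of the 17 pan-immune genes, 13 had a log2FC below 0 (median -0.87), a side on which 60.5% of all genes lay, and none passed the test. The 10 tested genes of LTi cells and ILC3, lymphoid cells that start follicle formation, had a median of 0.68 with all libraries and -0.43 without the 4. Their sum was 9.33, 0, 4.72, 2.26 and 5.33 per 10,000 in FAET, against 0.782, 1.0, 1.23, 1.31 and 11.1 in ILFT, higher in FAET in 3 of 5 repeats. The 16 tested T cell genes had a median log2FC of -1.34, with 2 above 0 and 5 lower in FAET at an unadjusted p under 0.05, beside 39.5% and 9.45% of all genes. Without the 4 libraries the median was -4.21, or -2.04 at their limit. Their sum was 10.4, 0, 5.58, 0.424 and 2.67 per 10,000 in FAET, against 2.09, 16.3, 11.9, 4.79 and 16 in ILFT, lower in FAET in 4 of 5 repeats. Cd3e, part of the CD3 complex of T cells, had 1, 0, 10, 0 and 0 UMIs in FAET, against 1, 1, 1, 0 and 0 in ILFT. Gzma, granzyme A of cytotoxic cells, was at 0 in all FAET libraries, against 15, 0, 43, 0 and 0 UMIs in ILFT. Its UMIs lay in the 2 ILFT libraries with the highest epithelial sums, and its pooled level was at least 11.9-fold lower in FAET. Runx3, a transcription factor of cytotoxic T and innate lymphoid cells, had 20, 0, 0, 0 and 0 UMIs in FAET, against 6, 28, 16, 1 and 19 in ILFT.

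The 26 tested genes of B cell identity had a median log2FC of -0.70, with 11 above 0, beside 39.5% of all genes, and of -0.99 without the 4 libraries (-2.12 at their limit, over 13 genes only). Their sum was 9.84, 1.86, 2.57, 4.10 and 6.56 per 10,000 in FAET, against 4.43, 19.3, 5.23, 9.44 and 9.67 in ILFT, lower in FAET in 4 of 5 repeats. Mef2c, a transcription factor of B cells and other lineages, was at 0 in FAET and had 27 and 2 UMIs in ILFT repeats 2 and 4, at least 5.93-fold lower in FAET on pooled levels. Igha, the heavy chain of IgA, had 469, 17, 0, 109 and 182 UMIs in FAET, against 11, 38, 3618, 5 and 385 in ILFT. A single library, ILFT repeat 3, held most of it, at 371 per 10,000. The log2FC of Igha was -1.90 ± 0.86 (adjusted p = 0.327, edgeR) with all libraries and -0.59 ± 1.06 (adjusted p = 0.891) without the 4, ILFT repeat 3 among them. The sum of plasma cell genes was 69.0, 7.90, 11.6, 17.5 and 38.8 in FAET, against 1.82, 18.3, 401, 4.65 and 47.5 in ILFT. The sum was above 0 in every FAET library, but Igha was at 0 in FAET repeat 3, where other genes of the list made up the 11.6.

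Macrophage genes had a sum of 43.2, 0, 0.429, 5.37 and 4.10 per 10,000 in FAET, against 9.30, 34.0, 34.9, 5.52 and 35.2 in ILFT. The 3 ILFT libraries rich in immune genes had like sums, at 34.0 to 35.2, and FAET was lower in 4 of 5 repeats. Lyz2, lysozyme of myeloid cells, had 142, 0, 0, 6 and 3 UMIs in FAET, against 7, 9, 129, 3 and 111 in ILFT. C1qa, a complement component of tissue macrophages, had 25, 0, 0, 4 and 0 UMIs in FAET, against 0, 0, 15, 0 and 23 in ILFT. Itgax (CD11c), an integrin of dendritic cells, had 17, 0, 0, 0 and 0 UMIs in FAET, against 0, 0, 17, 0 and 32 in ILFT. All 3 were at 0 in FAET repeats 2 and 3. C1qa and Itgax were also at 0 in ILFT repeats 1, 2 and 4, so like sums did not mean the same genes. The 14 tested macrophage genes had a median of -0.70 with all libraries and -3.01 without the 4 (-3.59 at their limit, over 11 genes only).

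Antigen presentation genes were present in both segments. The MHC class II sum was 124, 6.50, 38.6, 25.6 and 54.8 per 10,000 in FAET, against 46.4, 96.4, 133, 20 and 125 in ILFT, and 12 genes had a median of -0.63. Cd74, the invariant chain, had 37.8, 5.11, 4.29, 10.5 and 16.2 per 10,000 in FAET, against 11.6, 19.7, 41.5, 8.57 and 42.5 in ILFT. Its log2FC was -0.62 ± 0.86 (adjusted p = 0.830, edgeR). It was at 11.6 in ILFT repeat 1, where Ptprc and Coro1a were at 0. The 14 MHC class I genes had a median of -0.06 with all libraries and 0.89 without the 4 (0.39 at their limit). B2m, their shared light chain, had 28.3, 2.32, 17.6, 10.3 and 6.36 in FAET, against 24.7, 16.3, 52.1, 6.10 and 9.55 in ILFT.

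Follicular stroma genes were highest in the same 4 libraries as the pan-immune genes, FAET repeat 1 and ILFT repeats 2, 3 and 5. The sum of follicular stroma genes was 84.4, 0.464, 0.858, 4.66 and 11.1 per 10,000 in FAET, against 2.69, 45, 34.8, 4.36 and 97.4 in ILFT. FAET repeat 1 was second only to ILFT repeat 5. Cxcl13, the chemokine that draws B cells into follicles, had 32, 0, 1, 0 and 0 UMIs in FAET, against 0, 12, 0, 1 and 8 in ILFT. Mfge8, which follicular dendritic cells secrete to clear dying cells, had 284, 0, 0, 4 and 43 UMIs in FAET, against 12, 58, 212, 19 and 402 in ILFT. Ccl19 and Ccl21a, chemokines of T cell zones, were at 0 in all 10 libraries. The matrix gene Col1a2 had 27, 0, 2, 0 and 8 UMIs in FAET, against 0, 0, 25, 0 and 28 in ILFT. Lepr, the leptin receptor, had 3, 2, 1, 0 and 3 UMIs in FAET, against 1, 0, 3, 0 and 3 in ILFT. As a level it was higher in FAET in 4 repeats and at 0 on both sides in repeat 4, with a log2FC of 1.40 ± 1.49 (adjusted p = 0.744, edgeR), and 9 UMIs in FAET against 7 in ILFT allow no difference to be detected at this depth.

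**Figure D4:**
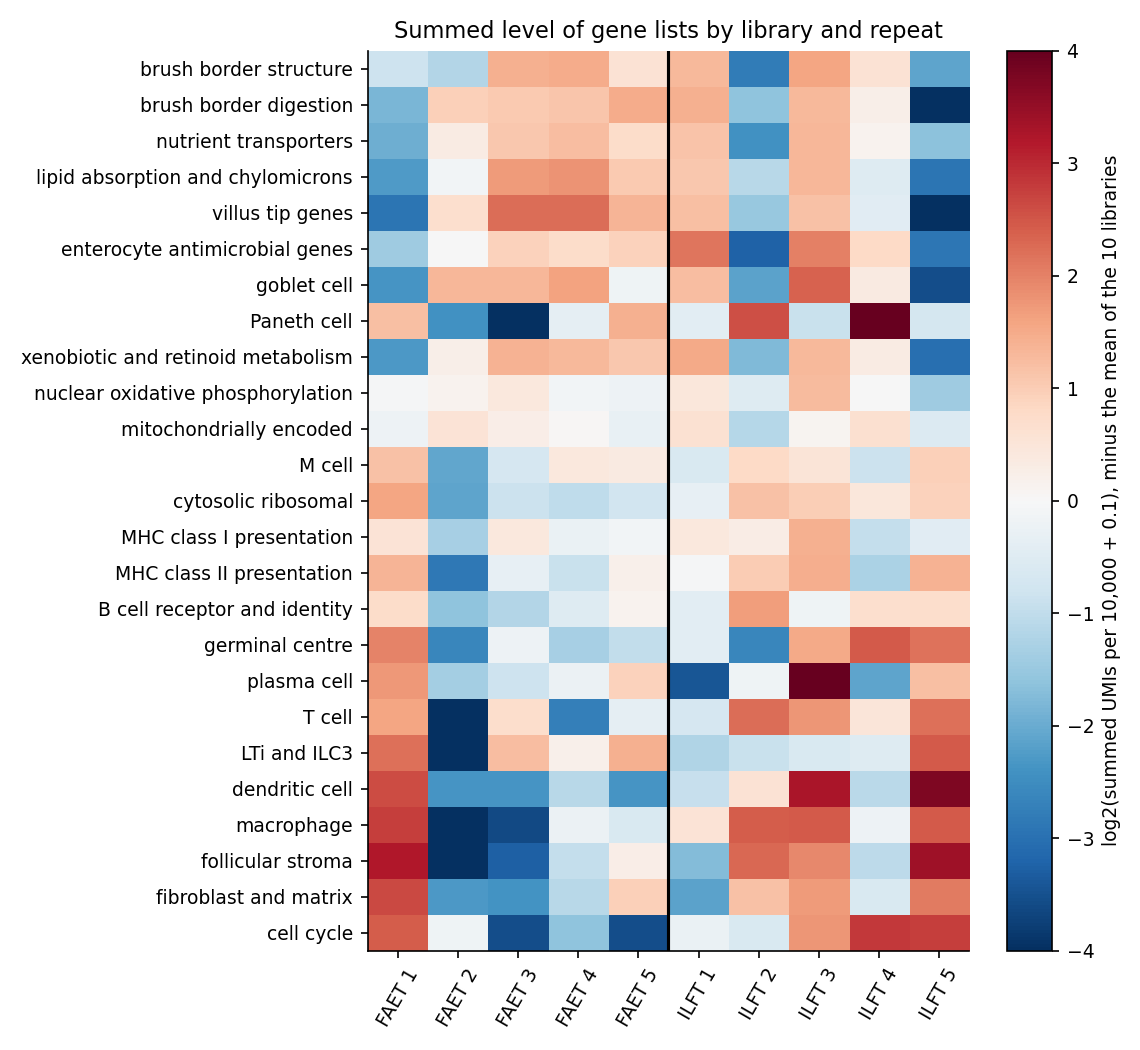
Summed level of 25 gene lists in each library, as log2 of UMIs per 10,000 plus 0.1, minus the mean of the 10 libraries. The 5 FAET libraries are left of the black line and the 5 ILFT libraries right of it. FAET repeat 1 is red for immune and stromal lists and blue for enterocyte and goblet cell lists, and ILFT repeat 1 shows the reverse for most of them.

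Ribosomal protein genes were not among the marker genes, and stood lower in FAET in 4 of 5 repeats. Their summed level was 659, 50.2, 121, 108 and 130.0 per 10,000 in FAET, against 173, 493, 429.9, 298 and 410.4 in ILFT. FAET repeats 2 to 5 lay below every ILFT library, those with epithelial markers included, and FAET repeat 1 lay above every ILFT library. Of 81 tested genes, 68 had a log2FC below 0 (median -0.56), beside 60.5% and -0.40 over all genes, and 0 were called. Without the 4 libraries, 74 of 81 were below 0 (median -2.14) and 25 were lower in FAET at an unadjusted p under 0.05, beside 53.5% and 9.84% of all genes. Rplp0, a protein of the ribosomal stalk, had 22, 0, 1, 13 and 1 UMIs in FAET, against 49, 24, 79, 73 and 49 in ILFT.

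Mitochondrial transcripts ran opposite to the ribosomal protein genes, which summed to 410.4 to 659 per 10,000 in FAET repeat 1 and ILFT repeats 2, 3 and 5, and to 50.2 to 298 in the other 6 libraries. All mitochondrial genes, the ribosomal RNAs included, took 664, 2855, 1814, 1512 and 1776 UMIs per 10,000 in FAET, against 1756, 538, 609.9, 1780.0 and 827 in ILFT. FAET repeats 2 to 5 and ILFT repeats 1 and 4 lay between 1512 and 2855, and FAET repeat 1 and ILFT repeats 2, 3 and 5 between 538 and 827, with none in between. The same 4 libraries that stood low had the highest pan-immune sums, whose part in this split was not tested. The large mitochondrial ribosomal RNA, mt-Rnr2, had 277, 1628, 1056, 836 and 1095 per 10,000 in FAET, against 831, 321, 144, 906 and 414 in ILFT. Its log2FC was 0.69 ± 0.41 (adjusted p = 0.430, edgeR) with all libraries and 1.86 ± 0.54 (adjusted p = 0.208) without the 4. The 52 nuclear genes of oxidative phosphorylation had a median of -0.33 with all libraries and 2.03 without the 4 (1.53 at their limit).

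Few genes kept 1 direction in all repeats. In 0 genes did every FAET library lie above every ILFT library (0% of 9956), and in 22 genes every FAET library lay below (0.221%). In 9 genes (0.0904%) FAET was higher in 5 of 5 repeats, and in 84 (0.844%) it was lower. The 22 included Rplp0, Serbp1, an mRNA-binding protein of the ribosome, Lgals9, galectin-9, and Kpnb1, the carrier of nuclear import. Serbp1 had 9, 0, 1, 5 and 0 UMIs in FAET, against 17, 7, 18, 23 and 32 in ILFT. Lgals9 had 10, 0, 0, 5 and 2 UMIs in FAET, against 36, 4, 58, 14 and 17 in ILFT. Rabgef1, a regulator of endosomes, had 0 UMIs in all FAET libraries, against 6, 9, 11, 10 and 25 in ILFT, at least 12.5-fold lower in FAET on pooled levels (adjusted p = 0.309, edgeR). These genes were chosen for their pattern, so no test of it is given. The pattern moved with depth: when every library was thinned to the 21529 UMIs of the smallest, 7 genes lay fully below and 26 were lower in 5 of 5 repeats, with 3 and 13 of these shared with the unthinned sets. Rplp0 and Rabgef1 were among the 3. Thinning left 9 genes higher in 5 of 5 repeats, 3 of them shared.

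The lower pair, FAEB against ILFB, was cut in the same repeats and gives the difference between epithelium and follicle at the side of the dome. With edgeR, 11 genes were called higher in FAEB (0.110%) and 17 higher in ILFB (0.171%), 28 in all. The count was 53 with the repeat as a block and 346 without the 6 opposing libraries. Brush border digestion genes had a median log2FC of 0.16 in the upper pair with all libraries, 4.32 without the 4 (2.64 at their limit) and 3.08 in the lower pair (3.07 at their limit), so that the order of the pairs depends on the libraries used. B cell identity genes had -0.70 in the upper pair with all libraries (-0.46 at their limit), -0.99 without the 4 (-2.12) and -4.88 in the lower pair (-3.37). The B cell medians at their limit rest on 20, 13 and 26 genes. The pan-immune sum was 28.4 ± 25.4 in FAET and 41.6 ± 33.0 in ILFT, against 9.51 ± 2.78 in FAEB and 65.6 ± 38.5 in ILFB (SD, n = 5 each). Across 9956 genes the log2FC of both pairs had a Pearson correlation of 0.01, and of 0.33 over 9290 genes without the 4 libraries. Genes are not independent replicates, and both pairs share animals. Apart from the 346 calls, the values of the lower pair include ILFB repeat 5, an opposing library. Its pan-immune sum was 3.92 and its pan-epithelial sum 82.5 per 10,000. Values of the upper pair without the 4 are thus set beside a lower pair that keeps an opposing library.

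**Figure D5:**
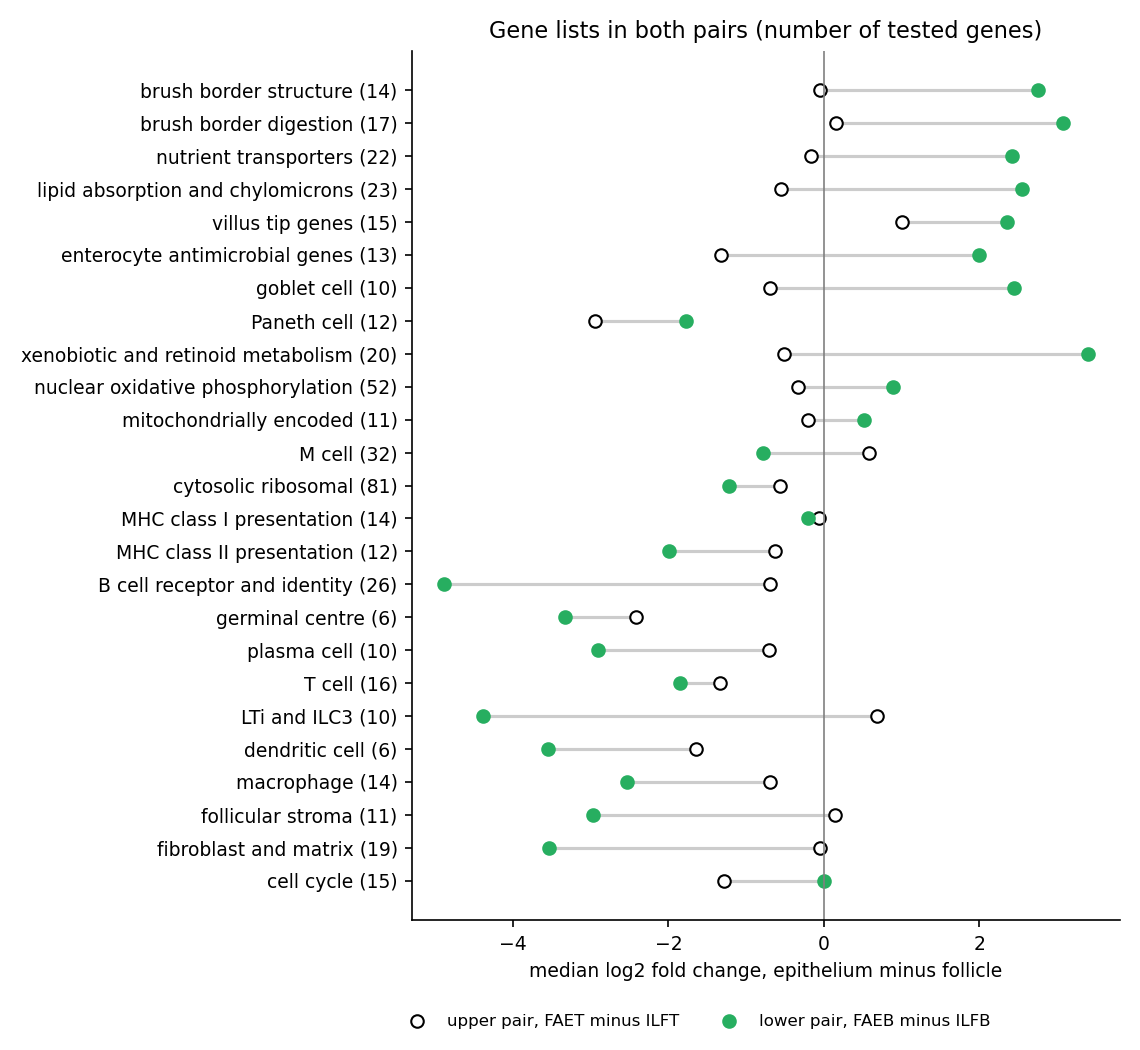
Median log2 fold change of 25 gene lists in the upper pair (FAET minus ILFT, open circles) and in the lower pair (FAEB minus ILFB, green), with the number of tested genes in parentheses. The medians of the lower pair reach from 3.39 for xenobiotic and retinoid metabolism to -4.88 for B cell identity, and include the opposing library ILFB repeat 5. Most of those of the upper pair, which include the 4 opposing libraries, lie between -2 and 1.

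The difference between the pairs was tested as an interaction, FAET minus ILFT minus the difference of FAEB and ILFB. With edgeR, 25 genes were higher (0.251%) and 12 lower (0.121%) in this contrast at an adjusted p under 0.05. A positive contrast means a gene stood relatively higher in FAET, within its pair, than in FAEB. The largest was that of Ccdc166, 16.25 ± 2.69 (SE, adjusted p = 1.43e-05), which rests on 152 UMIs in FAET repeat 5 and on 2 and 117 UMIs in ILFB repeats 4 and 5. Named further are 10 higher and 5 lower ones with a mean of at least 10 UMIs in 1 segment and 1 direction in at least 4 of 5 repeats. The lower ones were the epithelial genes Elf3, Reg3b, Npc1l1 and Fabp2, and Kitl, the ligand of the receptor Kit. Elf3, a transcription factor of epithelia, had 0 UMIs in all FAET libraries, against 13, 0, 45, 17 and 0 in ILFT, and 4, 6, 21, 5 and 20 in FAEB, against 1, 2, 5, 0 and 0 in ILFB. Its contrast was -10.09 ± 2.27 (SE, adjusted p = 0.0150). That of Reg3b was -7.46 ± 1.58 (adjusted p = 0.00747), with 33, 18, 139, 48 and 3 UMIs in FAEB, against 1, 1, 4, 0 and 0 in ILFB. Where a gene was at 0 in a whole segment, the size of its contrast is not measured and only its direction can be read. This holds for Elf3 in FAET, and for Ccdc166, Vpreb3, Txk and Nrp1 in ILFT and FAEB. It also holds for Srgn, Ly6d, 4930523C07Rik, Igfbp7 and Tnfaip8 in FAEB.

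Among the higher ones, Vpreb3, an assistant of B cell receptor assembly, had 0, 0, 0, 1 and 2 UMIs in FAET and 0 in ILFT, and 0 in FAEB, against 14, 7, 11, 76 and 0 in ILFB, with a contrast of 9.80 ± 2.53 (adjusted p = 0.0434, edgeR). Srgn, a proteoglycan of leukocyte granules, had 24 UMIs in FAET repeat 1 alone, against 0, 0, 0, 1 and 1 in ILFT, and 0 in FAEB, against 15, 5, 28, 46 and 0 in ILFB. The others were Txk, a kinase of T cells, Nrp1, a receptor of vessels and immune cells, Ly6d, a surface marker of B lineage cells, Igfbp7, a secreted protein of vessels and stroma, Kcnq5, a potassium channel, and 4930523C07Rik, Tnfaip8 and AW112010. In 9 of these 10 genes ILFB repeat 5 had 0 UMIs, which lowers their contrast, and Kcnq5 was the exception with 125. With the repeat number as a block, since same-numbered segments share an animal and sections, 1 gene was called, Elf3 (-10.60, adjusted p = 0.0434, edgeR), and without the 6 opposing libraries 0 were, with 762 genes at an unadjusted p under 0.05. DESeq2 also called 0, with 468 at an unadjusted p under 0.05. Leaving out 1 repeat gave 2 to 69 calls, the highest without repeat 5.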

How the data were processed

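Reads were aligned by the authors with STAR to GRCm38 (Ensembl release 84) and collapsed to UMIs with zUMIs. Base calling used bcl2fastq 2.15.0.4 (submitters' processing notes), and versions of STAR and zUMIs were not given in the sources used here. The authors deposited UMI counts per gene without scaling, for 24089 genes in 25 libraries. The labels name a SMARTseq kit for LCM, while the study's methods describe mcSCRB-seq, which carries UMIs. Depth was 21529 to 115106 UMIs in the 10 libraries compared. No 2 libraries of a segment were duplicates (lowest chi-square over degrees of freedom 8.71).

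Genes reaching 3 UMIs in 3 or more libraries (9956) were fitted in edgeR 4.0.16 under R 4.3.3 (TMM, quasi-likelihood F test, terms for mouse and segment, 25 libraries, Benjamini-Hochberg) after testing on simulated data. Other fits used DESeq2 1.42.0, limma 3.58.1 (voom), other size factors, filters and covariates, or fewer libraries. Same-numbered repeats share an animal and sections, so repeats pair the libraries by design. The correlation of FAET and ILFT deviations from their segment means was -0.150 to 0.150 within repeats. The comparison, the 45 gene lists and the libraries left out were chosen with earlier results of these data known. A list median at the limit sets a gene with 0 UMIs in 1 group to its bound from 3 UMIs. It can rest on fewer genes than the plain median, so both can differ for that reason alone. Without the 4 libraries it covered 13 of 26 B cell identity genes, 11 of 14 macrophage genes, 6 of 12 Paneth cell genes and 8 of 10 antimicrobial genes. Named genes were a panel of 63, up to 4 members per list with the smallest p, and called genes with a mean of at least 10 UMIs and 1 direction in at least 4 of 5 repeats, largest log2FC first (up to 15, or 10 between pairs). Other genes named were chosen after their values were seen. Figures and tables used Python 3.11.15, numpy 2.4.6, pandas 2.3.3 and matplotlib 3.10.9. The result of 1 gene is not reported here.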

Additional observations from a re-analysis of the deposited data

Results flagged for a closer look

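A value far from the other 4 libraries of its segment was sought in 128 groups of 5 values, on a log2 scale. In all, 9 were found. The limit used flags 1 in 20 by chance in independent groups, which these genes and lists from the same libraries are not. Of the 9, 7 were in FAET repeat 1, already known as an opposing library. Reg3g, Apoe, Rps15a and Mycbp2 were called in the fit without the 6 libraries, and the flagged lists hold epithelial or immune genes. These flags are therefore only a description of FAET repeat 1. It had 9.46 UMIs per 10,000 of brush border digestion genes, against 66.0 to 94.1 in the other FAET libraries, and 5.11 of nutrient transporters, against 25.5 to 47.3. Dendritic cell genes were at 3.07, against 0 to 0.141, and Reg3g at 0.639, against 12.1 to 24.4. Apoe was at 5.75, against 0 to 0.205, Rps15a at 11, against 0 to 0.205, and Mycbp2 at 2.94, against 0. In ILFT, repeat 5 stood apart with 11.1 UMIs per 10,000 of LTi and ILC3 genes, against 0.782 to 1.31 in the other ILFT libraries, and with 0.119 of Krt8, against 6.67 to 9.84.

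Between the pairs, the contrast of the upper minus the lower difference passed an adjusted p of 0.05 (edgeR) for 15 named genes. It was 10.08 for Txk, 9.80 for Vpreb3, 9.45 for Srgn, 9.42 for Nrp1, 9.24 for Ly6d, 8.65 for 4930523C07Rik, 8.31 for Igfbp7, 8.21 for Tnfaip8, 7.83 for Kcnq5 and 7.50 for AW112010. It was -10.09 for Elf3, -7.46 for Reg3b, -7.27 for Npc1l1, -6.28 for Kitl and -5.24 for Fabp2. All but Kcnq5 were at 0 in ILFB repeat 5, 1 of the 6 opposing libraries, and a 0 there lowers this contrast. Without repeat 5 there were 69 calls, against 37 with it. Other opposing libraries entered these values too. Elf3 had ILFT UMIs in repeats 1, 3 and 4 alone, and Reg3b mostly in repeats 1 and 3. Srgn and Igfbp7 had FAET UMIs in repeat 1 alone. Without the 6 libraries 0 genes passed. For genes at 0 in a whole segment the size of the contrast is not measured.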

How the results depend on the processing

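The 0 genes called higher in FAET became 1 with the study's denominator, 2 without the mouse term and 5 without the 6 libraries, and 0 to 4 when 1 repeat or 1 library was left out. The 0 genes called higher in ILFT became 4 without the 6 libraries and stayed at 0 in the fits that left out 1 repeat or 1 library. The replicate block gave 0 calls in each direction, also with the 10 libraries alone and without the 4 libraries, and changed the calls of the lower pair and between the pairs only. The 37 genes called between the pairs became 7 with no filter, 0 at a minimum of 10 UMIs, 0 with DESeq2, 1 with voom, 1 with the replicate block, 0 without the 6 libraries, and 2 to 69 without 1 repeat. The 28 genes of the lower pair became 45 with RLE size factors, 10 with no filter, 0 at a minimum of 10 UMIs, 4 with DESeq2, 162 with voom, 53 with the replicate block, 346 without the 6 libraries, and 0 to 14 without 1 repeat, alternatives chosen after seeing the data. Thinning to equal depth, also chosen after seeing the data, took the genes below without overlap to 7 and those lower in 5 of 5 repeats to 26.

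Of 61 tested panel genes, 24 changed sign without the 4 libraries. The log2FC without the 4, without the 6 and with the replicate block and without the 4 was 1.08, 1.53 and 0.92 for Krt8, 7.35, 7.32 and 7.53 for Reg3g, 5.70, 5.45 and 2.87 for Reg3b, 2.83, 2.77 and 2.89 for Pigr, 5.04, 4.81 and 4.20 for Fabp2, and -2.53, -2.56 and -2.09 for C1qa. Guca2b had -0.27 with the replicate block. With the study's denominator, voom and the replicate block on the 10 libraries, Reg3g had 0.06, 1.17 and 1.14, and Pigr 0.02, 0.15 and 0.24. C1qa had -0.05 with RLE size factors, -0.06 at a minimum of 10 UMIs, -0.08 with the 10 libraries alone and -0.07 without the mouse term. Leaving out 1 repeat or library gave -2.40 to 0.28 for Ptprc, -2.57 to 0.05 for Coro1a, -0.52 to 0.79 for Anpep, -0.60 to 1.20 for Guca2b, -1.23 to 0.89 for Reg3g, -1.06 to 0.16 for Pigr, -2.81 to 0.27 for Fabp2, -3.61 to 0.73 for Clu, -6.65 to 0.10 for Rps15a and -2.11 to 1.77 for C1qa. The causes were not tested. With 21529 to 78224 UMIs in FAET and simulated 4-fold changes called in 2% of the 50 genes given them, a change of that size would rarely be called here. Genes with a mean below 3 UMIs were not among those changed in the simulation.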
